A study of Mus musculus with 5 samples.

Results

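The sites described here were bound by estrogen receptor α (ERα) in the uterus of mice given vehicle, and were covered by a longer peak in mice given estradiol 1 hour earlier. They were chosen by length alone. A vehicle peak and an estradiol peak were paired where each overlapped the other by at least 1 bp and neither overlapped a further peak of the other list. A pair was kept when the estradiol peak was at least 1.5 times as long as the vehicle peak. Of the 3550 such pairs on the autosomes, 1282 met this rule and are called widened sites below. The remaining 2268 pairs comprised 2082 whose lengths differed by less than 1.5-fold and 186 narrowed sites, where the vehicle peak was at least 1.5 times as long. Of 5137 autosomal vehicle peaks, 1474 had no estradiol overlap and 113 overlapped but not one to one, so neither kind could be a member.

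The series mapped ERα and RNA polymerase II on chromatin of the whole uterus with ChIP-seq, the sequencing of DNA pulled down with an antibody to a bound protein. All mice were C57BL/6J, with 1 library per condition among its 5 samples. Both ERα peak lists are labelled WT, for wild type. The vehicle group consisted of mice without ovaries that received saline 10 to 14 days after their removal. The estradiol group had the same surgery and interval and received 250 ng of estradiol per mouse into the peritoneum, and both were sampled 1 hour after injection. ERα was precipitated with the same antibody lot in both groups, and the polymerase and input libraries were not analysed here. The lists held 5184 vehicle and 17240 estradiol peaks, without scores or read counts, so the depth of each library is unknown. Every difference between vehicle and estradiol given here is a difference between 2 libraries with no replicate check, and no p-value is given. Epithelium, stroma and muscle were not separated. A longer peak can therefore not be assigned to more bound cells or to more receptor on the DNA of each cell.

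ERα is a ligand-activated transcription factor of the nuclear receptor family. Estradiol binds its ligand pocket, and the receptor dimer attaches to estrogen response elements, palindromic DNA motifs that lie mostly in enhancers far from gene starts, or is held there by other DNA-bound factors. In the uterus this starts an early wave of transcription that precedes growth of the epithelium. Some ERα is already on chromatin without ligand. In ChIP-seq the length of a called peak is the stretch over which fragments exceed the caller's threshold. It depends on how much signal there is, on how many binding positions lie close together, on fragment length and on depth. Sequence motifs, genes and gene positions were not assigned to the sites, because the gene table at hand is on another mouse build than the mm9 coordinates of the peaks.

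The widened sites had short vehicle peaks and long estradiol peaks, as the rule requires. Their vehicle peaks had a median length of 187 bp (quartiles 144 and 240 bp) and their estradiol peaks 382.5 bp (304 and 504 bp). At the other pairs the medians were 252 bp after vehicle and 267 bp after estradiol. The length ratio of the widened sites had a median of 1.98 (quartiles 1.70 and 2.48), and the gain in length a median of 187 bp, from 59 to 1314 bp. Most of the widening was moderate: 662 sites had a ratio under 2, 172 reached 3 and 24 reached 5. In sum the widened sites gained 297 kb, against a net 26.4 kb over all other pairs. These values chose the members and are a description.

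**Figure D1:**
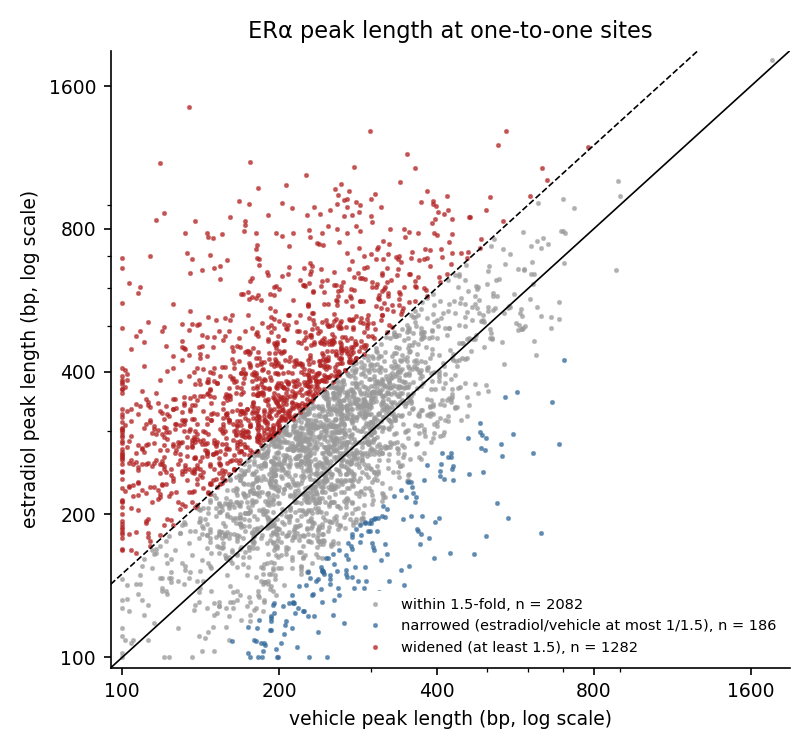
Length of the estradiol peak (vertical axis, bp, log scale) against the vehicle peak (horizontal axis, bp, log scale) at the 3550 one-to-one pairs, 1 point per pair. The solid line marks equal length and the dashed line the ratio of 1.5; the 1282 widened sites lie on or above it, and 50 of them form the column at the shortest vehicle length of 100 bp.

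The widened sites were 36.1% of the pairs, and the narrowed sites 5.24%. The cut at 1.5 falls in a continuous range. The 3 members just inside it had a ratio of exactly 1.5 and lay on chromosome 2 (318 bp after estradiol and 212 bp after vehicle) and chromosome 8 (228 and 152 bp; 207 and 138 bp). The 3 pairs just outside, on chromosomes 10, 15 and 12, measured 562 and 375 bp, 364 and 243 bp, and 346 and 231 bp, with ratios from 1.498 to 1.499. Estradiol peaks were longer over the whole lists too, with medians of 242 and 207 bp, and 888 pairs still reached 1.5 after each length was divided by the median of its own list.

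Short vehicle peaks made up much of the set. When the pairs were split into 10 equal groups by vehicle length, 80.8% widened in the group of 100 to 139 bp and 14.1% in the group from 367 bp up. A ratio favours short starting peaks by construction. Of the 57 pairs whose vehicle peak had the list's shortest length of 100 bp, 50 were members. Widened sites were nevertheless found in each of the 10 groups. Their vehicle peaks reached 780 bp, while those of the other pairs reached 1760 bp.

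In all, 3 members combined a top 10 ratio with a top 10 gain. The most extended lay on chromosome 11, where a vehicle peak of 134 bp (78894814 to 78894947, mm9 as all positions here) sat within an estradiol peak of 1448 bp (78894224 to 78895671), a ratio of 10.8. It gained 590 bp toward lower and 724 bp toward higher coordinates. This site had 4 estradiol-only peaks, meaning estradiol peaks that overlap no vehicle peak, within 10 kb, while the nearest other vehicle peak was 838.5 kb away. On chromosome 15 a vehicle peak of 118 bp (78813839 to 78813956) lay near the low end of an estradiol peak of 1103 bp (78813636 to 78814738), so that 782 of the 985 added bp were on the high side. On chromosome 9 a vehicle peak of 176 bp (8732953 to 8733128) was covered by 1105 bp (8732738 to 8733842), again with most of the gain, 714 bp, on the high side.

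The remaining members with the largest ratios also started from very short vehicle peaks. On chromosome 19 a peak of 120 bp became one of 865 bp (59663835 to 59664699) and on chromosome 18 one of 116 bp became 836 bp (68651146 to 68651981), both 7.21-fold. A vehicle peak of 100 bp was replaced by 694 bp on chromosome 16 (25238416 to 25239109) and another by 662 bp on chromosome 2 (65856746 to 65857407). These 4 sites had 0, 2, 0 and 2 estradiol-only peaks within 10 kb and no other vehicle peak within that distance. The nearest estradiol-only peak to the chromosome 16 site was 12.03 kb away. Of all 10 members with the largest ratio, 8 had at least 1 estradiol-only peak within 10 kb. This was so at 55.0% of all widened sites and 40.6% of all pairs. Lower in the ranking were sites on chromosome 2 (113 to 701 bp, 167176513 to 167177213), chromosome 11 (138 to 833 bp, 117173509 to 117174341) and chromosome 18 (103 to 616 bp, 65046764 to 65047379), with ratios from 5.98 to 6.20. The vehicle peaks of all 10 were 100 to 176 bp long and lay wholly inside the estradiol peak.

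Ranking by added base pairs brought in sites with longer starting peaks, from 118 to 351 bp. On chromosome 13, 2 of them lay 95.4 kb apart: a vehicle peak of 298 bp grew to 1287 bp (52094642 to 52095928) and one of 225 bp to 1038 bp (51998247 to 51999284). On chromosome 3 a peak of 278 bp grew to 1078 bp (144305882 to 144306959), with the nearest other vehicle peak 743 kb away. The site on chromosome 12 from 16770841 to 16771990 grew from 351 to 1150 bp almost entirely on its low side, 705 against 94 bp, and an estradiol-only peak lay 0.006 kb from its edge. Gains of 795, 784 and 749 bp were found on chromosome 8 (124675458 to 124676434), chromosome 5 (114082696 to 114083685) and chromosome 16 (29945795 to 29946710). The chromosome 5 site was the only one of the 10 to extend equally, by 392 bp each way, and it had 9 estradiol-only peaks within 10 kb, the most of any widened site. Of these 10 members, 9 had at least 1 estradiol-only peak within 10 kb and 7 lay in a cluster of estradiol peaks. The shares were 55.0% and 20.0% over all widened sites, and 40.6% and 12.9% over all pairs. Among the 10 members with the largest ratio, the counts were 8 and 4. Both rankings use the lengths that chose the members, so the counts are a description.

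**Figure D2:**
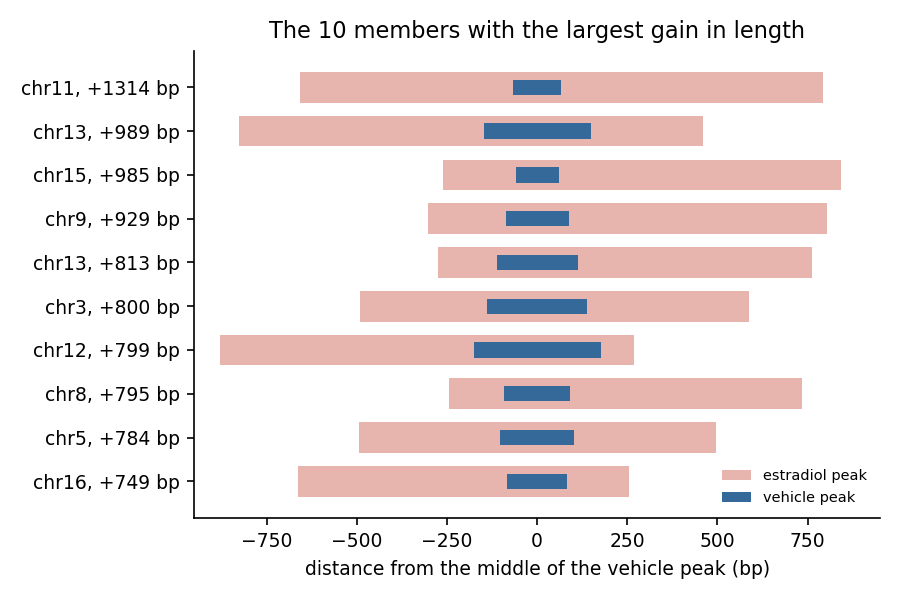
Extent of the vehicle peak (dark bar) and the estradiol peak (light bar) at the 10 widened sites with the largest gain in length, drawn to scale around the middle of the vehicle peak (horizontal axis, bp). The top bar is the chromosome 11 site that gained 1314 bp; at 6 of the 10 at least 75% of the gain lies on one side, to the right on chromosomes 15, 9, 8 and 13 (the site that gained 813 bp) and to the left on chromosomes 12 and 16.

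A few long vehicle peaks also widened. The longest, 780 bp on chromosome 1 (38298300 to 38299079), was covered by 1193 bp (38298098 to 38299290) and grew by nearly equal amounts, 202 and 211 bp. Those of 650 bp on chromosome 19 (57511126 to 57511775) and 637 bp on chromosome 9 (67397050 to 67397686) reached 1013 and 1074 bp. On chromosome 10 a vehicle peak of 603 bp (69667209 to 69667811) and an estradiol peak of 937 bp (69667279 to 69668215) were offset, so that the extension of 404 bp lay on the high side only. The fifth, 544 bp on chromosome 2 (72885196 to 72885739), was covered by 1290 bp (72884652 to 72885941). Among the longest estradiol peaks of the set was also one of 1201 bp on chromosome 8 (129189661 to 129190861) over a vehicle peak of 525 bp, with 644 of the 676 added bp on the low side.

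The next question was where the added length lay relative to the vehicle peak. The rule fixes part of the containment, but not the side. In 1240 of the 1282 widened sites (96.7%, 95% Wilson interval 95.6 to 97.6) the vehicle peak was wholly inside the estradiol peak. At the other pairs this was so in 44.2% (42.1 to 46.2), a share that the smaller gain limits. In the remaining 42 members 1 end of the vehicle peak stuck out, the start in 23 and the end in 19. Wilson intervals here and below cover counting error only and treat sites as independent, which neighbouring sites are not.

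The added length at these 1240 sites was divided between the sides in varying degree. At 482 of them (38.9%, 36.2 to 41.6) each side received at least 40% of the added length. At 326 (26.3%, 23.9 to 28.8) at least 75% of it lay on one side, toward lower coordinates in 155 and toward higher coordinates in 171. At the 1002 other pairs with the vehicle peak inside, whose gains were smaller, the shares were 30.2% (27.5 to 33.2) for both sides and 36.1% (33.2 to 39.2) for one side. The midpoints of the vehicle and estradiol peaks were a median of 26 bp apart (quartiles 10.1 and 59 bp), and within 50 bp at 71.3% (68.8 to 73.7) of all widened sites. They were within 50 bp at 92.6% (91.4 to 93.6) of the other pairs, whose midpoints have less room to separate.

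Among the widened sites, one-sided extension was most frequent at those that gained most. The widened sites were split into 4 equal groups by gain. In the group with the largest gains, 276 to 1314 bp, 46.2% (40.7 to 51.7) extended mainly on one side. In the 3 lower groups the one-sided share was 22.5% (18.2 to 27.5), 14.1% (10.7 to 18.5) and 22.0% (17.7 to 27.0). The interval of the top group does not meet any of the others. At the other pairs with the vehicle peak inside, whose gains were smaller, the share of 36.1% (33.2 to 39.2) was above these 3 lower groups. Over all pairs, one-sided extension thus did not simply rise with the gain. Where a one-sided member had an estradiol-only peak within 1 kb, that peak was on the side of the extension in 33 of 82 (40.2%, 30.3 to 51.1). Within 10 kb it was on that side in 95 of 202 (47.0%, 40.3 to 53.9), and both intervals include an even split.

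**Figure D3:**
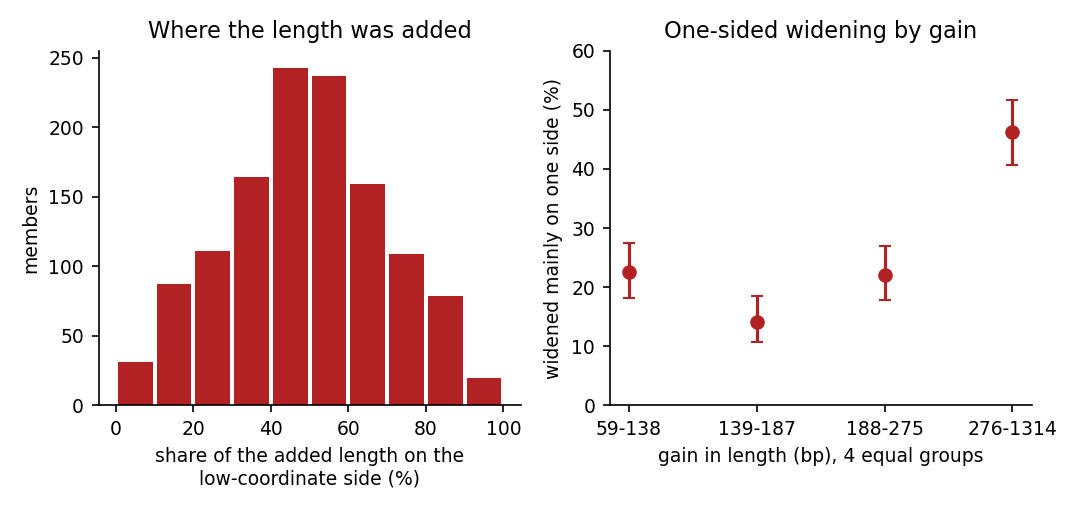
Left, number of widened sites (bars) by the share of the added length on the low-coordinate side, for the 1240 sites whose vehicle peak lay inside the estradiol peak; the bars are highest around the middle and near equal on both sides. Right, share of sites with at least 75% of the added length on one side (points, with 95% Wilson intervals) in 4 equal groups by gain in bp; it was 46.2% in the top group and 14.1 to 22.5% below it.

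The surroundings of the widened sites were then compared with those of the other pairs. An estradiol-only peak lay within 10 kb of 705 widened sites (55.0%, 52.3 to 57.7). This was the case at 33.6% (31.6 to 35.7) of the pairs within 1.5-fold and at 19.4% (14.3 to 25.6) of the narrowed sites. The 3 intervals do not meet, and the same order was found at 1, 5 and 50 kb. The median gap to the nearest estradiol-only peak was 7.16 kb at widened sites, 25.3 kb at pairs within 1.5-fold and 53.7 kb at narrowed sites. Neighbours and peak lengths come from the same estradiol library and share its depth, whose part in this result was not tested.

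Other vehicle peaks did not follow that order. Another vehicle peak lay within 10 kb of 22.9% (20.6 to 25.2) of the widened sites, 25.9% (24.1 to 27.8) of the pairs within 1.5-fold and 34.4% (28.0 to 41.5) of the narrowed sites. At 50 kb the shares were 50.2%, 49.9% and 55.9%, with overlapping intervals. At 5 kb they were 15.7%, 19.4% and 24.2%. At 1 kb they were 6.16% (4.97 to 7.61), 9.03% (7.87 to 10.3) and 12.9% (8.83 to 18.5). There the interval of the widened sites lies below the others. Over all lengths together, widened sites thus more often had a neighbour called after estradiol alone, and not a neighbour called after vehicle. The neighbour measures are not alike. The pairing rule leaves out an estradiol peak that reaches another vehicle peak, but not one that covers further estradiol signal. Gaps to estradiol-only peaks run from the estradiol peak, and gaps to vehicle peaks from the vehicle peak. The part of these rules in the contrast was not tested. The values by length are given below.

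**Figure D4:**
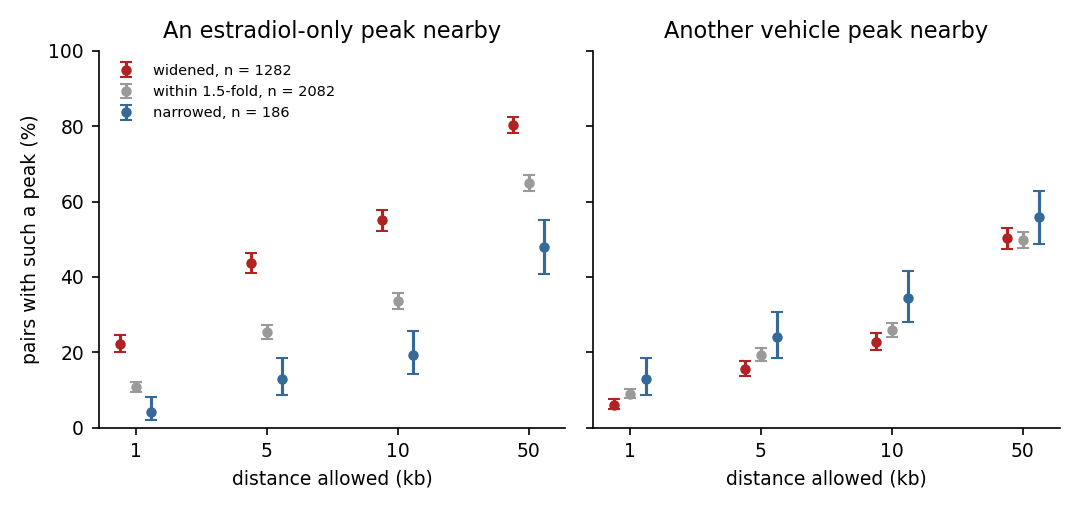
Share of pairs (vertical axis, %, points with 95% Wilson intervals) that had an estradiol-only peak (left) or another vehicle peak (right) within the distance on the horizontal axis (kb). Widened sites are highest on the left at every distance, for example 55.0% against 33.6% and 19.4% at 10 kb; on the right they are not.

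Several estradiol-only peaks often lay around 1 widened site. At least 2 lay within 10 kb of 29.7% (27.3 to 32.3) of the widened sites and 11.3% (10.1 to 12.7) of all other pairs, and at least 5 within 10 kb of 44 and 10 sites. Read the other way, 27.4% (25.5 to 29.3) of the pairs with no such neighbour widened, 40.3% (37.0 to 43.8) with 1, 56.6% (51.5 to 61.6) with 2, 59.5% (52.9 to 65.9) with 3 or 4 and 81.5% (69.2 to 89.6) with 5 or more, against 36.1% of all pairs. The median vehicle length varied little over these groups, from 227 to 247 bp. Estradiol length was not compared over them, and the rise was not taken within groups of estradiol length. After the chromosome 5 site with 9 such neighbours, and singled out after the values were seen, came members on chromosome 16 (35221620 to 35222175, 227 to 556 bp) and chromosome 6 (121118784 to 121119258, 199 to 475 bp), each with 8. The estradiol-only peak nearest to a widened site within 10 kb had a median length of 245 bp, against 228 bp beside the other pairs.

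Peak length was itself related to having neighbours, so the shares were also taken within 4 equal groups of pairs by length. Within each group by vehicle length, widened sites had an estradiol-only peak within 10 kb more often than the other pairs. The shares were 44.6% (40.6 to 48.6) and 25.9% (21.4 to 31.0) for vehicle peaks of 100 to 180 bp, and 71.2% (63.2 to 78.1) and 41.3% (37.8 to 44.9) for those of 291 bp and more. Within the groups by estradiol length the gap was smaller. For estradiol peaks of 233 to 305 bp the shares were 30.7% (25.3 to 36.6) and 28.7% (25.3 to 32.3), with overlapping intervals, and for those of 100 to 232 bp they were 30.1% (20.8 to 41.4) and 22.0% (19.3 to 25.0). For estradiol peaks of 306 to 394 bp they were 49.7% (44.6 to 54.9) and 39.5% (35.4 to 43.7), and for those of 395 bp and more 71.3% (67.6 to 74.8) and 57.8% (52.1 to 63.4). Other vehicle peaks within 10 kb showed no single direction within groups of length. For vehicle peaks of 231 to 290 bp they were near more widened sites than other pairs, 32.3% (26.5 to 38.6) against 22.0% (18.99 to 25.4). For vehicle peaks of 291 bp and more the shares were 28.1% (21.3 to 36.0) and 37.8% (34.4 to 41.3), and here as in the 2 groups of shorter vehicle peaks the intervals overlapped. By estradiol length, they were 24.7% and 21.8% in the lowest group with overlapping intervals, and lower at widened sites in the next 3, for example 29.3% (25.8 to 33.1) against 42.9% (37.3 to 48.6) in the top group.

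**Figure D5:**
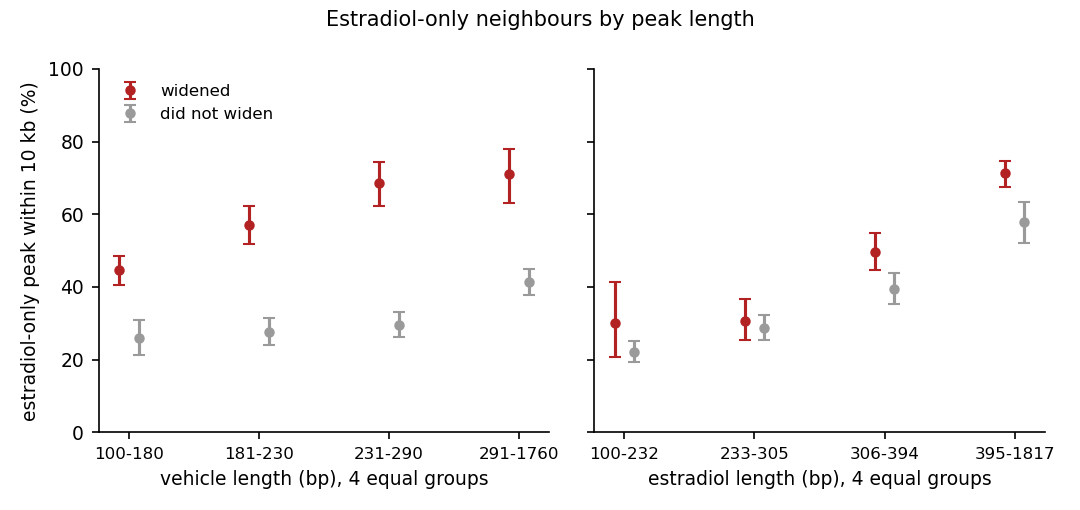
Share of widened sites and of all other pairs with an estradiol-only peak within 10 kb (vertical axis, %, points with 95% Wilson intervals) in 4 equal groups by vehicle length (left) and by estradiol length (right), in bp. The 2 kinds of site are well apart in each group on the left, and on the right only in the upper 2 groups, where the shares were 49.7% against 39.5% and 71.3% against 57.8%.

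Widened sites were also more often part of dense groups of estradiol peaks. Clusters were defined as 5 or more consecutive estradiol peaks separated by gaps under 12500 bp. Clusters held 257 widened sites (20.0%, 17.9 to 22.3), 194 pairs within 1.5-fold (9.32%, 8.14 to 10.6) and 7 narrowed sites (3.76%, 1.83 to 7.56). Of the 458 pairs in clusters 56.1% (51.5 to 60.6) had widened, against 33.1% (31.5 to 34.8) of those outside. The cluster share was not taken within groups of peak length. Cluster membership and estradiol-only neighbours both varied with the gain, which is computed from the lengths that chose the members. Long estradiol peaks that did not widen also had such neighbours often, at 57.8% for those of 395 bp and more. Of the widened sites that gained 276 bp or more, 35.8% (30.8 to 41.2) lay in a cluster and 75.4% (70.4 to 79.8) had an estradiol-only peak within 10 kb. Of those that gained 59 to 138 bp, 9.29% (6.58 to 12.9) lay in a cluster and 34.1% (29.1 to 39.4) had such a peak, near the 8.86% and 32.5% of the pairs that did not widen.

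Counted among members only, most widened sites had no other member close by, and some lay in runs. Other peaks were often near: within 50 kb, 80.3% had an estradiol-only peak and 50.2% another vehicle peak. Runs were not counted for the other pairs, so the numbers describe the spacing of members and no trait particular to them. With gaps of less than 50 kb between them, 964 widened sites had no other member beside them, 202 formed couples, 78 formed groups of 3, and 9 groups held 4 or 5. Of 381 adjacent couples of one-to-one sites within 10 kb of each other, both had widened in 67, 1 in 146 and neither in 168. Couples with 1 widened site outnumbered those with both, but independent sites at the share of 36.1% would give that order too. The order therefore cannot show whether neighbours differ. Of all pairs 36.1% widened, and the counts that this share alone would give were not computed. The log2 length ratios of these neighbours had a Pearson correlation of 0.318, a description over sites that share libraries and region.

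The 2 runs with the most members held 5 each. On chromosome 12 from 81037707 to 81095337 all 5 one-to-one pairs widened, from 157 to 268 bp, 223 to 608 bp, 429 to 780 bp, 176 to 441 bp and 225 to 449 bp, among 9 estradiol peaks. On chromosome 15 from 83461500 to 83514011, 5 of 6 pairs widened and gained 1911 bp in sum. The largest of these went from 155 to 779 bp (83510218 to 83510996) and from 159 to 688 bp (83513324 to 83514011), and lay at the high end of the run. A run of 4 on chromosome 8 from 124600192 to 124682303 added 1993 bp, the most of the 9 groups, of which 795 bp fell to the single site named above. On chromosome 13 from 112124448 to 112188579, all 4 pairs widened, with ratios from 1.99 to 3.51 and only 7 estradiol peaks in 64.1 kb.

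Members were found on every autosome, in shares close to the 36.1% of all pairs. The lowest share was 27.4% (21.5 to 34.2) of the pairs on chromosome 3 and the highest 40.4% (34.1 to 47.0) on chromosome 11. Only the interval of chromosome 3 leaves out 36.1%, and it was picked as the lowest of 19. The median ratio of the members ran from 1.87 on chromosome 6 to 2.16 on chromosome 11.

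The number in each deposited peak name also differed between the kinds of site, although its meaning is not given in the sources used here. Widened sites had later vehicle numbers, with a median of 2610 against 1620 for the other pairs, and earlier estradiol numbers, with 3646 against 8738. The share of pairs that widened was 21.1% (17.2 to 25.7) in the first of 10 equal groups by vehicle number and 54.1% (48.9 to 59.2) in the last. Vehicle length fell along the same order, from a median of 332 to 146 bp. In 10 equal groups by estradiol number, median estradiol length was 380 bp in the first, 391 bp in the fifth and 158 bp in the last. The share that widened was 52.1%, 55.5% and 1.41% there. Both numbers thus went with the lengths that chose the members, and contrasts in either number are a description. The first 5480 estradiol numbers run along 1 chromosome after another, so they follow position, and 996 widened sites (77.7%, 75.3 to 79.9) were among them, against 827 (36.5%, 34.5 to 38.5) of the other pairs. The first 384 vehicle numbers run along the chromosomes in the same way, so no rank can be read among them. They include the chromosome 12 site that grew from 351 to 1150 bp, with vehicle number 32, and a member of a run on chromosome 8 that grew from 382 to 596 bp (27412504 to 27413099), with vehicle number 6.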

How the data were processed

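Only the ERα peak lists after vehicle and after estradiol were used. Each was deposited by the authors per sample as chromosome, start, end and a peak name with no score. The deposited values are positions in bp, on mm9 per the file headers. The submitters' processing notes name mm9 and Partek with no role. How reads were aligned, how peaks were called and whether input served as control is not given in the sources used here. Depth is unknown.

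Length was end minus start, and printed starts are counted from 1. Pairs, gaps between peak edges and clusters were computed with pandas 2.3.3 and numpy 2.4.6 (Python 3.11.15), and 95% Wilson intervals with scipy 1.17.1. No test between conditions was made, since each has 1 library. The counting was tested on simulated data: all 700 widened pairs among 2000 planted ones were recovered.

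The members and lists were chosen with earlier results of these data known. Sites named are the 10 members with the largest ratio, the 10 with the largest gain, the 5 longest in each library, and the 3 pairs on either side of the ratio of 1.5; runs, sites rich in neighbours and the site with the lowest vehicle number were picked after their values were seen. The reference gene table is on GRCm38, so the planned gene lists, gene starts and estrogen response element searches were not carried out and no sequence is printed.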

Additional observations from a re-analysis of the deposited data

How the results depend on the processing

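The number of widened sites was 620 with a ratio of at least 2 and 664 with a reciprocal overlap of 50%. By construction, that overlap rule leaves out every pair in which 1 peak is more than 2 times as long as the other. The 664 therefore cover only ratios from 1.5 to 2. Under the other 9 settings the number of widened sites stayed within 1.5 times the 1282 reported. It ran from 888 (lengths divided by their list median) to 1890 (estradiol peak at least 25% longer). The share of pairs that widened was 53.2% with estradiol peaks at least 25% longer, 17.5% at a ratio of 2, 25.0% with lengths divided by the list median, 22.9% with that reciprocal overlap and 39.4% with peaks closer than 500 bp joined. With estradiol peaks at least 25% longer, the vehicle peak lay inside the estradiol peak at 94.6%, an estradiol-only peak was within 10 kb of 51.3%, and 17.5% were in clusters. At a ratio of 2 these were 97.6%, 61.1% and 23.5%. With neighbouring peaks joined, they were 94.4%, 46.9% and 14.1%, one-sided extension rose to 36.9%, and another vehicle peak was within 10 kb of 20.0%. One-sided extension was 4.19% when 90% of the added length had to lie on one side. Changing the distance to 5 kb gave 43.8% with an estradiol-only peak and 15.7% with another vehicle peak, and 50 kb gave 80.3% and 50.2%. Cluster gaps under 5 and 25 kb gave 7.49% and 34.8%.

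The difference between widened sites and other pairs kept its sign under all 7 settings tried for each neighbour measure. It ran from 16.8 to 26.9 percentage points for estradiol-only peaks, from 4.71 to 15.7 for clusters and from -4.42 to -0.12 for other vehicle peaks. The -0.12 stands for 50.23% against 50.35% within 50 kb, with overlapping intervals, so the sign there carries little. Neighbours were not counted with lengths divided by their list median or ranked within their list. Settings on estrogen response elements and gene starts were not run for lack of an mm9 sequence and annotation. No paired analysis was possible because each condition has 1 library and the results come from no test. No replicate could be left out, and the unknown depth limits every comparison of peak length.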
